A study of Homo sapiens with 60 samples.

Results

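The last dose step of an ethanol extract of Menthae Herba, from 100 to 500 µg/mL, was examined in A549 cells. The comparison rested on 6 of the 60 RNA sequencing libraries of the series, taken by their labels: the 3 libraries labelled as high dose and the 3 labelled as medium dose. The question was what the last 5-fold rise in concentration added to the transcriptome.

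A549 is an established line of human non-small cell lung carcinoma. In the series, such cells were treated for 24 h with ethanol extracts of single herbs or herbal formulas, or with vehicle. The groups used here were Menthae Herba at 500, 100 and 20 µg/mL (high, medium and low dose), Saposhnikoviae Radix at 500 and 100 µg/mL, and the vehicle, with 3 libraries each. The vehicle is 0.1% DMSO in the sample labels and 2% in the series description. The series description lowers the top dose of extracts whose inhibitory concentration lay under 500 µg/mL, and Menthae Herba was given at the full 500. The extracts are mixtures, and the labels do not name their constituents. Libraries of Polygalae Radix, Aucklandiae Radix, Saengmaek-san, Guibi-tang and Soyo-san, and of Saposhnikoviae Radix at 20 µg/mL, entered only the shared fit. The labels number the replicates without saying whether they were separate cultures. Every p-value therefore reflects only how far libraries scatter within groups, 57 libraries in 22 groups in the shared fit, which may be technical.

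Menthae Herba is the dried herb of mint, a plant known for the menthol of its oil. Several stresses, among them a shortage of amino acids and unfolded protein in the endoplasmic reticulum, lead to phosphorylation of the translation factor eIF2α. This slows protein synthesis and favours translation of the transcription factor ATF4, whose targets supply amino acids, charge tRNAs and, when stress lasts, promote cell death. Sterol synthesis is governed in a different way, by SREBP transcription factors that are released from the endoplasmic reticulum when sterols run low. The aryl hydrocarbon receptor (AHR) is another sensor, which binds planar aromatic compounds, plant compounds among them, and switches on CYP1 enzymes.

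The 6 libraries held between 22762676 and 31154706 expected counts, against 17113963 to 33363661 over all 60. Mitochondrially encoded mRNAs took between 4.66% and 5.48% of the counts in each. Library levels are given as CPM, counts scaled to a common library size by trimmed mean of M-values (TMM), which are shares of a library and not amounts per cell. In bulk RNA, less RNA per cell and fewer cells of a kind cannot be told apart. Of 12 markers fixed for A549, all lay above 1 CPM in the 6 libraries, with a summed level of 20095 to 21364 CPM at the high dose and 23159 to 23936 at the medium dose. The alveolar (7), endothelial (5) and hepatocyte (6) markers lay below 1 CPM in all 6 libraries, with SFTPA1, SFTPA2 and APOB at 0. Of 6 immune markers PTPRC and CD3E were at 0, 4 in all were below 1 CPM, and the summed level was 7.38 to 8.02 CPM at the high dose against 11.0 to 11.1 at the medium dose, carried by CD68 and CD14. The library names put the vehicle libraries in another set than those of Menthae Herba, and the vehicle libraries carried 20.6 to 31.6 CPM of ENSG00000282955, a gene at 2.32 CPM or less in the 6 libraries. A difference from vehicle therefore cannot be told apart from a difference between library sets, and vehicle levels are given as a description, with no test.

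At an adjusted p under 0.05 (edgeR, fitted over 57 libraries of the series), 2048 of 18396 genes tested differed between the doses. Of these, 673 (3.66% of the genes tested) were higher and 1375 (7.47%) were lower at 500 than at 100 µg/mL, so that 67.1% of the genes called were lower. With offsets that remove each library's trend on transcript length and GC share, 1268 were higher and 1515 lower, 54.4% of the called genes. At 2-fold or more, 49 genes were higher and 102 lower. The median log2 fold change over all genes tested was 0.01. A value written as a ± b is a log2 fold change with its standard error or, where CPM is named, a mean with its SD over 3 libraries. Most genes named below the 16 leading ones belong to lists of pathway members, and beyond the first 3 of each list they were picked after their values were seen. The step from 20 to 100 µg/mL, which shares the 3 medium-dose libraries, changed 32 genes: 12 (0.0652%) higher and 20 (0.109%) lower. The number called in the last step depended on which libraries set the spread. It was 4373 when only the 6 libraries were fitted and 3248 with a mean for each group and library class, and 1503 to 1707 when 1 of the 6 was left out. For the lower step it was 13 to 51 when 1 library was left out, with 8 to 22 genes higher and 5 to 29 lower.

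**Figure D1:**
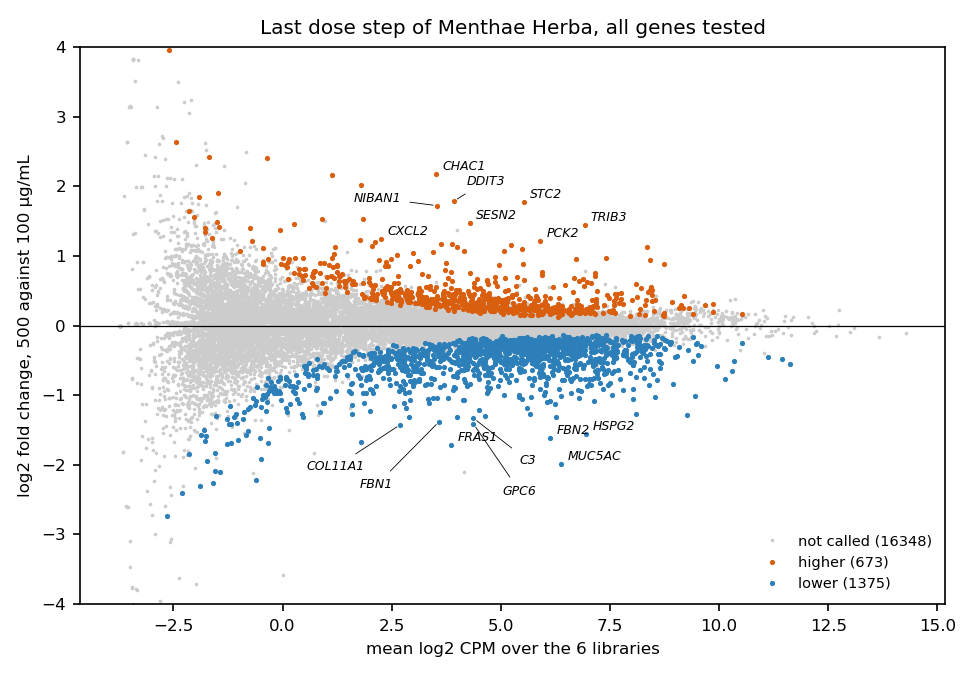
Each point is 1 of the 18396 genes tested, with its mean log2 CPM over the 6 libraries on the x axis and its log2 fold change from 100 to 500 µg/mL on the y axis. The 673 genes called higher are orange, the 1375 called lower are blue, the 16 genes named by rule are labelled, and 31 genes lie outside the y axis limits of -4 and 4.

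The 3 replicates of the high dose differed more among themselves than those of the medium dose. The chi-square of their counts per gene is near 1 where 2 libraries differ by sampling alone. It was 5.95 and 6.59 for the high-dose pairs that hold replicate 1, and 3.00 between high-dose replicates 2 and 3. Between medium-dose pairs it was 2.31 to 2.80. The low-dose libraries, used for the step below, scattered most, at 9.93 to 19.2. Replicate 1 of the high dose was the highest of the 3 for 285 of the 673 rises. Replicate 3 was the lowest for 712 of the 1375 falls.

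The leading genes were taken among those called whose log2 CPM averaged 2 or more and whose doses did not overlap. The 3 that rose most, CHAC1, DDIT3 and STC2, are known targets of the integrated stress response. The separation of the doses in all leading genes was thus set by the choice, and genes of lower level that rose as far, such as EGR1, are described with their lists. CHAC1, an enzyme that degrades glutathione (ENSG00000128965, chromosome 15, 40952962 to 40956519, GRCh38), stood at 32.3, 20.6 and 20.1 CPM in the 3 high-dose libraries and at 5.98, 5.23 and 5.06 CPM in the 3 medium-dose libraries. Replicate 1 was the highest of the high-dose libraries. The log2 fold change was 2.17 ± 0.15 (standard error; adjusted p = 2.42e-14, edgeR), and the low-dose libraries, at 4.68, 4.18 and 4.99 CPM, were close to the medium dose. DDIT3, which encodes the transcription factor CHOP that drives cell death under prolonged stress (ENSG00000175197, chromosome 12, 57516588 to 57521737), stood at 39.1, 23 and 23.4 CPM against 8.91, 7.04 and 8.88, again with replicate 1 highest. Its log2 fold change was 1.79 ± 0.14 (adjusted p = 3.81e-13). DDIT3 and MARS1, which encodes methionyl-tRNA synthetase, overlap at their ends on opposite strands, and the labels do not say whether the counting used strand, so reads of the overlap may be split between them. STC2, a secreted glycoprotein (ENSG00000113739, chromosome 5, 173314713 to 173329503), stood at 109.9, 77.7 and 69.9 CPM against 25.6, 25.2 and 24.6, a log2 fold change of 1.77 ± 0.10 (adjusted p = 1.72e-16). It had also risen in the step below, by 0.49 ± 0.11 from 20.1, 16.6 and 16.9 CPM at the low dose.

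NIBAN1, SESN2, TRIB3, CXCL2 and PCK2 made up the rest of the 8. NIBAN1, a stress-induced protein tied to translation control, stood at 19.3, 22.3 and 21.5 CPM against 6.67, 6.24 and 6.24 and rose by 1.72 ± 0.13 (adjusted p = 1.04e-13). Here the 3 high-dose libraries were close together and replicate 1 was the lowest of them. SESN2, a leucine sensor that restrains the growth kinase mTORC1, stood at 39.8, 28.9 and 28.9 CPM against 11.8, 12.5 and 11, a change of 1.47 ± 0.09. TRIB3, a pseudokinase that binds ATF4, stood at 219, 193 and 189 CPM against 70.7, 71.1 and 78.4, a change of 1.45 ± 0.10 in log2. PCK2, the mitochondrial enzyme that makes phosphoenolpyruvate, stood at 94.6, 90.5 and 87.2 CPM against 38.2, 39 and 40.3, with 1.21 ± 0.08 in log2. CXCL2, a neutrophil-attracting chemokine and the one gene of the 8 on the list of NF-kB and cytokines, stood at 9.4, 6 and 6.37 CPM against 3.1, 3.4 and 2.74 and rose by 1.24 ± 0.17 (adjusted p = 2.86e-07).

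**Figure D2:**
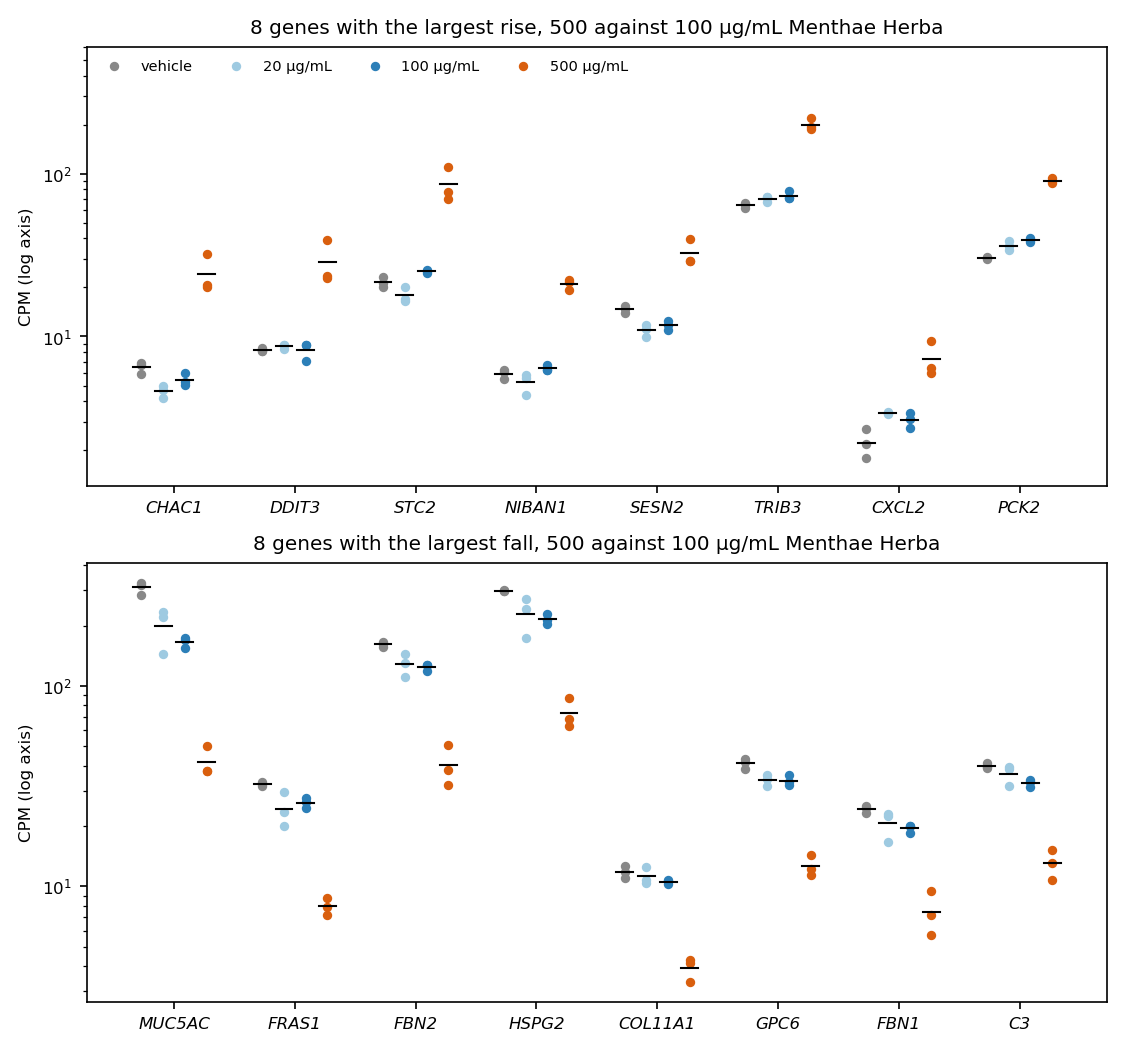
CPM on a log axis for the 8 highest and the 8 lowest genes by rule, with 1 point per library, a bar at the mean of 3 libraries, and colours for vehicle, 20, 100 and 500 µg/mL Menthae Herba. The rule that chose the 16 genes required the libraries at 500 µg/mL to lie apart from those at 100 µg/mL. Those at 20 and 100 µg/mL lie close together except in STC2, which differs by 0.49 in log2, and in MUC5AC, whose libraries at 20 µg/mL are scattered.

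On a list of 23 tested genes that act in the ATF4 response, 19 rose and 0 fell, with a median log2 fold change of 0.89 against 0.01 over all genes tested. ATF4 itself stood at 363, 351 and 351 CPM against 249, 238 and 246, a rise of 0.54 ± 0.13 (adjusted p = 0.00324) that was smaller than those of CHAC1, DDIT3 and ASNS. DDIT4, an inhibitor of mTORC1, rose by 1.13 ± 0.12, from 222 ± 5.66 to 486 ± 40.4 CPM (SD, n = 3). ATF3, a transcription factor of the same family as ATF4, rose by 0.93 ± 0.12. CEBPG, a binding partner of ATF4, rose by 0.75 ± 0.08, and GDF15, a secreted stress hormone, by 0.87 ± 0.11. PPP1R15A, the phosphatase subunit that reverses eIF2α phosphorylation, rose by 0.41 ± 0.12, a call lost without high-dose replicate 1 or medium-dose replicate 3. The 4 members not called were CEBPB at 0.41 ± 0.22, CTH at 0.25 ± 0.15, ATF5 at 0.19 ± 0.19 and SLC7A11, the cystine transporter, at -0.28 ± 0.20. SLC7A11 stood at 527, 448 and 384 CPM at the high dose and at 550.3, 551 and 551 at the medium dose, and the high-dose libraries were the more spread.

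The promoters of the list's 19 called genes were searched for the letters TGATGNAA, the core of the amino acid response element that ATF4 binds, on both strands over the 250 bases before the RefSeq start (GRCh38.p14). Of 17 genes with an entry, 3 held it: CHAC1, ASNS and ATF3. The share was 3.19% over 27305 RefSeq promoters of that length and 1.43% over the 12164 of genes tested. They are shown because CHAC1 heads the genes that rose and ASNS is a classical target of this element. Each window is given 5′ to 3′ on the strand of its gene, with the match in capitals. In CHAC1 (chr15:40953242-40953289, plus strand) the match begins 209 bases before the start and reads on the opposite strand. In ASNS (chr7:97872449-97872496, minus strand) it begins 68 bases before the start, and in ATF3 (chr1:212565196-212565243, plus strand) 191 bases before it. These RefSeq starts lie inside the GENCODE 29 genes used for positions elsewhere, by 509 bases in CHAC1, 134 in ASNS and 73 in ATF3, so that the windows of CHAC1 and ASNS fall within the GENCODE gene.
CHAC1: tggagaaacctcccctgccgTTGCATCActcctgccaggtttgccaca
ASNS: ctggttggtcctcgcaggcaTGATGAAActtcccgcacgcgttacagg
ATF3: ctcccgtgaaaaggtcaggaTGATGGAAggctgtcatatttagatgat

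Enzymes that make amino acids also rose, in part the same genes again: ASNS, PHGDH, PSAT1, PSPH and the synthetase CARS1 also stand on the ATF4 list. ASNS, which makes asparagine, stood at 239.7, 238 and 235 CPM against 121, 124 and 121, with replicates almost equal within each dose, and rose by 0.96 ± 0.06 (adjusted p = 2.41e-15). Of 12 serine and one-carbon genes 7 rose and 0 fell, at a median of 0.38, and this count was the same whichever of the 6 libraries was left out. The 3 enzymes of serine synthesis were all among them. PHGDH, the first of these, stood at 142, 151 and 149 CPM against 72.2, 78 and 78.3 and rose by 0.95 ± 0.07. PSAT1 rose by 0.89 ± 0.08 and PSPH by 0.56 ± 0.08. The other 4 were all enzymes of the mitochondrial folate path: ALDH1L2 at 1.07 ± 0.09, MTHFD2 at 0.94 ± 0.11, SHMT2 at 0.39 ± 0.07 and MTHFD1L at 0.37 ± 0.06. MTHFD2 stood at 476 ± 14.7 CPM at the high dose against 249 ± 7.2 at the medium dose. Their cytosolic counterparts SHMT1 (0.07 ± 0.06) and MTHFD1 (0.06 ± 0.04) were not called, nor was TYMS (0.01 ± 0.09).

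Of the 20 cytosolic aminoacyl-tRNA synthetases, the enzymes that load amino acids onto tRNAs, 12 rose and 0 fell, at a median of 0.28. GARS1, for glycine, stood at 328, 336 and 345 CPM against 219.9, 224 and 222 and rose by 0.60 ± 0.07 (adjusted p = 1.82e-08). CARS1, for cysteine, rose by 0.59 ± 0.06, MARS1 by 0.50 ± 0.07, SARS1, for serine, by 0.48 ± 0.09 and AARS1, for alanine, by 0.44 ± 0.05. The other 7 that rose, EPRS1, YARS1, WARS1, IARS1, NARS1, TARS1 and LARS1, lay between 0.22 and 0.42, and the call of TARS1 was lost without any 1 library but high-dose replicate 1. The 8 not called, among them KARS1, QARS1, FARSA, HARS1, VARS1, RARS1 and FARSB, lay between -0.01 and 0.07.

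Amino acid transporters were mixed, with 5 of 14 higher and 1 lower at a median of 0.09. SLC1A4, a carrier of alanine and serine, stood at 69.1, 59.9 and 58 CPM against 32.2, 34.5 and 34.1 and rose by 0.89 ± 0.06. SLC6A9, a glycine transporter, rose by 0.79 ± 0.11, and SLC43A1 by 0.41 ± 0.14. SLC1A5, the glutamine carrier, rose by 0.25 ± 0.07. The call of SLC43A1 was lost whichever of the 6 libraries was left out, and that of SLC1A5 without high-dose replicate 1 or medium-dose replicate 3. SLC38A2, an amino acid carrier known to respond to starvation, stood at 527, 393 and 358 CPM against 303, 294 and 303. It rose by 0.51 ± 0.14, a call lost without high-dose replicate 1, and in that fit the list's count of rises was 2. SLC7A5, the light chain of the main leucine transporter, moved the other way, at 2863, 2528 and 2449 CPM against 3919, 3907 and 3689, a log2 fold change of -0.55 ± 0.07 (adjusted p = 4.63e-08). Its heavy chain SLC3A2 was at -0.21 ± 0.12 and was not called.

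The endoplasmic reticulum list moved in both directions, with 3 of 20 genes higher, 8 lower and a median of -0.13. XBP1, a transcription factor of the unfolded protein response, stood at 96.1, 68 and 79 CPM against 45.3, 47.4 and 50 and rose by 0.77 ± 0.10 (adjusted p = 7.55e-08). HERPUD1, a component of the degradation machinery, rose by 0.65 ± 0.09 and DNAJB9, a co-chaperone, by 0.56 ± 0.13. In XBP1 and HERPUD1 high-dose replicate 1 was the highest, and the call of DNAJB9 was lost without it. HSPA5, the principal chaperone of the compartment, was not called, at 734, 616 and 561 CPM against 621, 607 and 619, a difference of 0.05 ± 0.06 (adjusted p = 0.705). The chaperones and folding enzymes that fell were HSP90B1 (-0.51 ± 0.06), CANX (-0.43 ± 0.06), PDIA4 (-0.41 ± 0.06), PDIA3 (-0.40 ± 0.08), DNAJC3 (-0.36 ± 0.10), CALR (-0.32 ± 0.06) and PDIA6 (-0.30 ± 0.05). The call of DNAJC3 was lost without high-dose replicate 2 or 3. SEL1L, the adaptor of a degradation ligase, fell by 0.62 ± 0.09, from 132 ± 3.28 to 85.7 ± 12.1 CPM. Of 16 cytosolic heat shock genes 3 fell and 0 rose: CRYAB (-0.75 ± 0.18), HSPA1A (-0.47 ± 0.13) and HSPA1B (-0.40 ± 0.10). HSPA1A and HSPA1B are near-identical, so their reads may be split between them. Both calls were lost without high-dose replicate 1, and that of HSPA1A also without medium-dose replicate 3.

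Immediate early genes, the fast transcription factors and phosphatases of growth factor signalling, rose in 11 of 21 cases and fell in 1, at a median of 0.31. EGR1, a zinc finger factor too low in level to enter the 8 leading genes, stood at 7.01, 3.38 and 3.36 CPM against 1.03, 0.936 and 1.08 with replicate 1 well above the other two, and rose by 2.17 ± 0.24 (adjusted p = 5.93e-09). DUSP6, a phosphatase that turns off ERK, rose by 0.69 ± 0.08, and DUSP1 by 0.36 ± 0.07. PHLDA1 rose by 0.62 ± 0.06, MAFF by 0.61 ± 0.14, IER3 by 0.39 ± 0.13 and JUN by 0.34 ± 0.07. FOS (-0.08 ± 0.14), FOSB (0.02 ± 0.27) and FOSL2 (-0.12 ± 0.07) were not called, and DUSP5 fell by 0.23 ± 0.08. The 11 rises included SPRY2 and also ATF3, which stands on the ATF4 list too. The calls of SPRY2 and DUSP5 were lost whichever library was left out, and that of IER3 in 5 of these 6 fits. Of 19 genes of NF-kB and cytokines 5 rose and 2 fell. Besides CXCL2, the neutrophil chemokines CXCL8 (1.13 ± 0.28) and CXCL3 (0.87 ± 0.19) rose, from 1.53 ± 0.322 to 3.38 ± 0.887 CPM and from 1.74 ± 0.393 to 3.14 ± 0.646 CPM. The cytokine IL11 (0.50 ± 0.12) and the subunit NFKB2 (0.19 ± 0.06) rose as well, NFKB2 in 2 of the 6 fits without 1 library. CXCL1 was at 0.26 ± 0.23 and was not called. The monocyte chemokine CCL2 fell by 0.92 ± 0.19, with 2.82, 2.94 and 3.01 CPM against 5.59, 5.16 and 5.89, and TNFAIP2 was at -0.28 ± 0.05. The feedback inhibitors NFKBIA (0.10 ± 0.07) and TNFAIP3 (-0.07 ± 0.12) were not called.

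Of 16 genes of the BCL2 family, which sets the threshold for apoptosis, 3 rose and 0 fell, and all 3 belong to the BH3-only group that promotes cell death. PMAIP1 stood at 30.3, 23.7 and 23 CPM against 12.9, 12.3 and 11.4 and rose by 1.07 ± 0.11 (adjusted p = 1.22e-09). BBC3 stood at 13.3, 10.1 and 10.6 CPM against 5.04, 5.37 and 6.01 and rose by 1.05 ± 0.12 (adjusted p = 1.54e-08). HRK was low, at 1.55, 1.4 and 1.35 CPM against 0.603, 0.416 and 0.636, and rose by 1.37 ± 0.31. The groups did not overlap in any of the 3. This describes the same libraries as the calls, adds no support to them, and was not set beside the share over all genes. Of the protective members MCL1 was at 0.19 ± 0.08 and BCL2L1 at -0.25 ± 0.09, neither called. When only the 6 libraries were fitted 6 members rose and 2 fell, and with the 9 Menthae Herba libraries 5 rose and 1 fell. Of 24 p53 targets 5 rose and 0 fell: SESN2, BBC3, GDF15, GADD45A (0.51 ± 0.09) and TP53I3 (0.38 ± 0.09). SESN2 and GDF15 also stand on the ATF4 list. The defining p53 targets CDKN1A, at 80.3, 83.9 and 82.3 CPM against 84.6, 88.4 and 88.1, and MDM2, at 0.08 ± 0.10, were not called, and the list's median was 0.07. With the length and GC offsets 8 p53 targets were called.

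By the same rule of level and separation, 6 of the 8 genes that fell most encode proteins of the extracellular matrix or the cell surface, and MUC5AC and C3 encode secreted proteins. Genes below that level, such as MUC16, are described with their lists. MUC5AC, the gel-forming mucin of the airway (ENSG00000215182, chromosome 11, 1157953 to 1201138), stood at 49.9, 37.8 and 37.7 CPM at the high dose against 169.9, 173 and 155 at the medium dose. It fell by 1.99 ± 0.23 in log2 (adjusted p = 9.03e-09). In the low-dose libraries it was at 220.4, 232 and 145 CPM and in the vehicle libraries at 320.2, 282 and 326, and the 3 doses and the vehicle are set side by side as a description. FRAS1, a basement membrane protein (ENSG00000138759, chromosome 4, 78057570 to 78544269), stood at 8.74, 7.22 and 7.88 CPM against 27.6, 26.3 and 24.7 and fell by 1.72 ± 0.13 (adjusted p = 5.93e-14). FBN2, a microfibril component (ENSG00000138829, chromosome 5, 128257909 to 128659185), stood at 50.9, 38.1 and 32.2 CPM against 127, 127 and 119, a log2 fold change of -1.62 ± 0.16. In FBN2, as in MUC5AC, high-dose replicate 1 was the highest of its group.

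HSPG2, which encodes the heparan sulfate proteoglycan perlecan (ENSG00000142798, chromosome 1, 21822245 to 21937297), stood at 86.9, 68.7 and 62.9 CPM against 213, 228 and 204, with a log2 fold change of -1.56 ± 0.15. COL11A1, a fibrillar collagen, stood at 4.3, 4.17 and 3.32 CPM against 10.2, 10.6 and 10.8 and fell by 1.42 ± 0.11. GPC6, a glypican of the cell surface, stood at 14.3, 12.3 and 11.4 CPM against 36, 33.1 and 32.1 and fell by 1.41 ± 0.10. FBN1, another fibrillin, fell by 1.38 ± 0.13. C3, the central component of complement, stood at 15.2, 13.1 and 10.8 CPM against 34, 33.3 and 31.2, a log2 fold change of -1.33 ± 0.11. For these 5 genes the medium and the low dose were much alike, as they were for FRAS1 and FBN2: the differences from 20 to 100 µg/mL lay between -0.15 and 0.10 over the 7 genes, and 0 of them were called.

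Of 22 genes of extracellular matrix and basement membrane 20 fell and 0 rose, at a median log2 fold change of -0.98. The count was 20 with each of the 6 libraries left out in turn. Both chains of the common basement membrane collagen fell, with COL4A1 at -1.06 ± 0.09 and COL4A2 at -1.04 ± 0.07. COL4A1 stood at 35.4, 31.7 and 25.7 CPM against 64.5, 65.6 and 63.1. All 7 laminin chains on the list fell, among them LAMC1 at -1.05 ± 0.07, LAMA5 at -1.02 ± 0.12, LAMB1 at -0.93 ± 0.07, LAMA3 at -0.81 ± 0.09, LAMB2 at -0.74 ± 0.08 and LAMB3 at -0.72 ± 0.10. COL12A1 fell by 1.19 ± 0.15 and the matricellular SPARC at -1.07 ± 0.08. The 2 not called were COL6A2, at 11.1, 10 and 8.46 CPM against 9.47, 11.2 and 8.65, and COL1A1, at 31.7, 32.4 and 31.8 CPM against 33.2, 35.2 and 35.3. The partner chain COL6A1 fell by 0.64 ± 0.11. The fibroblast markers COL1A2, DCN, LUM, PDGFRB and PDGFRA were below 1 CPM in all 6 libraries, and the summed level of the 7 fibroblast markers, carried by COL1A1 and COL3A1, was 35.0 to 35.9 CPM at the high dose and 39.5 to 42.5 at the medium dose.

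Transcript length moved with the falls. The longest annotated transcript had a median of 6671.5 bases over the matrix list. Genes tested with a length and a mean log2 CPM of at least 2 over the 6 libraries were split by length into 5 bins of equal size. By the same edgeR test, 3.63% of the genes fell and 4.64% rose in the bin of the shortest. In that of the longest, 16.9% fell and 3.28% rose. With the offsets for length and GC share 20 of the 22 matrix genes fell, at a median of -0.87, and the stress response list held 19 rises at a median of 0.85. Spearman's rho was taken across all 18251 tested genes with a length, whatever their level, and these are not independent. It was -0.15 between length and the log2 fold change of the last step. For the step below, which shares the medium-dose libraries, it was 0.33. For the 7 airway mucins described next, with a median length of 11226 bases, the offsets left 4 falls at a median of -0.59.

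**Figure D3:**
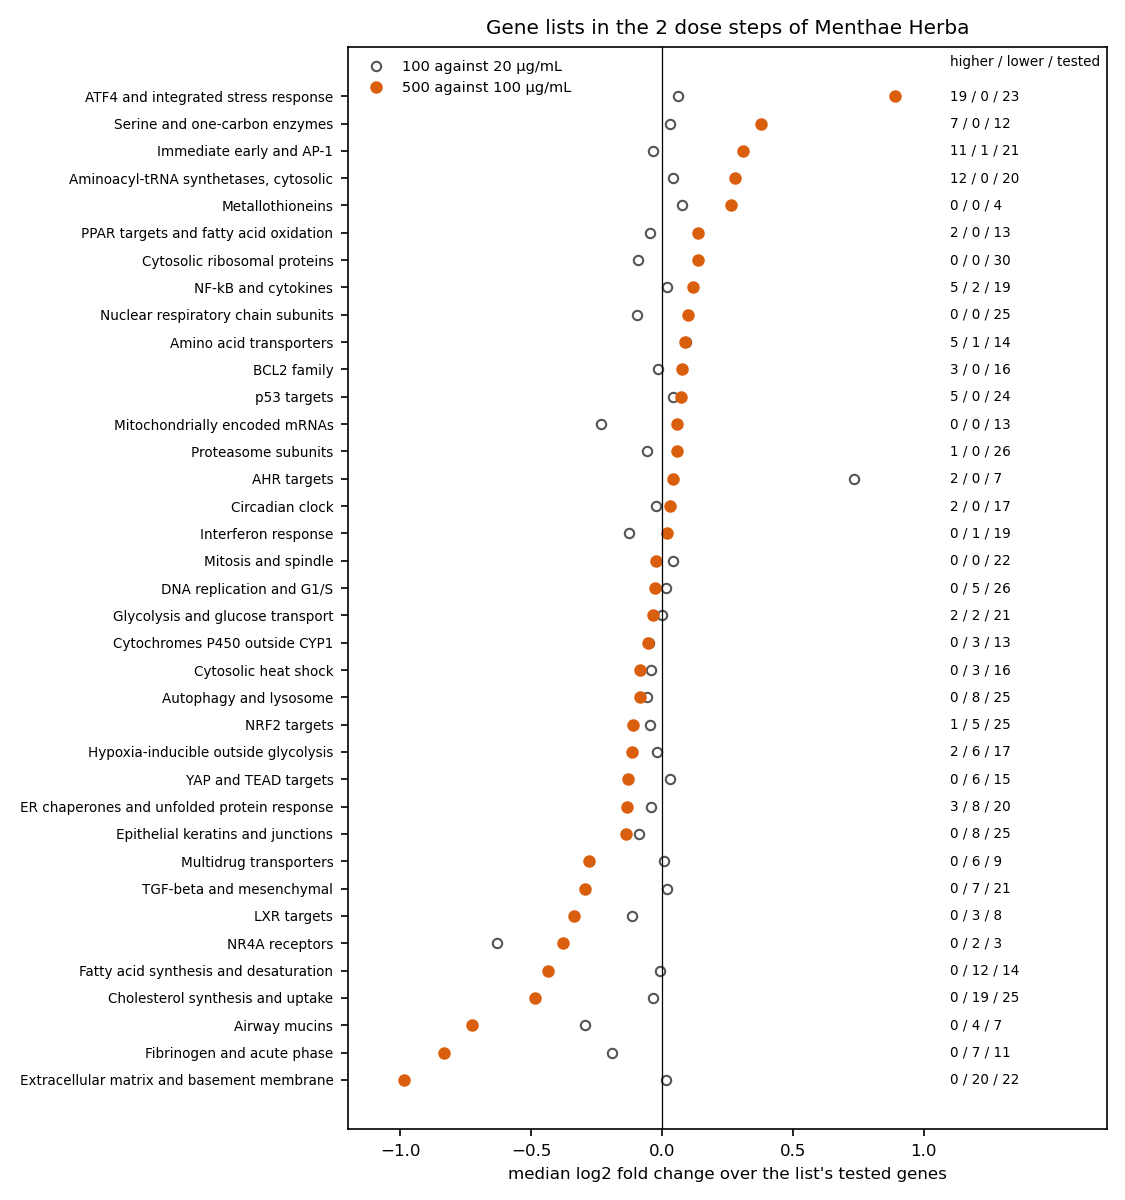
Median log2 fold change of each of 37 gene lists from 100 to 500 µg/mL (filled orange) and from 20 to 100 µg/mL (open), with the numbers called higher, called lower and tested in the last step at the right. The list of ATF4 and stress response genes lies furthest to the right, at 0.89, and the matrix list furthest to the left, at -0.98. In the step below, the AHR list, at 0.73, lies furthest to the right and the NR4A list, at -0.63, furthest to the left.

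Secreted liver-type and defence proteins also fell. Of 11 fibrinogen and acute phase genes 7 fell and 0 rose, at a median of -0.83. The fibrinogen chains FGB (-0.87 ± 0.08), FGA (-0.83 ± 0.07) and FGG (-0.67 ± 0.07) fell together, and FGB stood at 97.3, 90.5 and 90.2 CPM against 175, 161 and 174. Fibrinogen was already among the few genes lower in the step below, with FGB at -0.39 ± 0.08 (adjusted p = 0.0283), FGG at -0.33 ± 0.07 and FGA at -0.30 ± 0.07. CP, the copper carrier ceruloplasmin, fell by 1.11 ± 0.14 and C5, a complement component, at -0.76 ± 0.07. The 4 not called, SERPINA3 (-0.87 ± 0.34), CFB (-0.77 ± 0.34), SERPINA1 (-0.66 ± 0.38) and LCN2 (-0.40 ± 0.32), had larger errors. HNF4A, a transcription factor of liver and epithelial genes, followed the same order, at 47.1, 51 and 47.1 CPM against 74.3, 75.4 and 73.3 and 90.9, 87.6 and 86.1 at the low dose. It fell by 0.62 ± 0.05 in the last step, its log2 fold change in the step below was -0.25 ± 0.05 (adjusted p = 0.0226), and it was picked out after its values were seen. The genes called lower in the step below, 20 in the fit of 57 libraries, were 8, 5 and 6 without medium-dose replicate 1, 2 or 3. They were 7, 29 and 6 without low-dose replicate 1, 2 or 3. Which of the lower-step calls of fibrinogen and HNF4A remained was not checked. Of 7 airway mucins 4 fell and 0 rose, at a median of -0.72: MUC5AC, MUC16, MUC5B and MUC13 (-0.39 ± 0.10, lost without high-dose replicate 3 or medium-dose replicate 1). MUC16, a membrane mucin, was low, at 0.253, 0.251 and 0.27 CPM against 1.12, 1.35 and 1.18, and fell by 2.22 ± 0.37. MUC5B fell by 0.94 ± 0.26, and its call was lost without high-dose replicate 2 or 3. Without replicate 3, 2 of the 7 mucins were called.

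Most genes of sterol and fatty acid synthesis fell. Of 25 cholesterol genes 19 fell and 0 rose, at a median of -0.49, and 15 or 16 fell when 1 library was left out. INSIG1, which retains the SREBP precursor and is itself its target (ENSG00000186480, chromosome 7, 155297776 to 155310235), stood at 20.6, 20 and 18.6 CPM against 37.4, 37.1 and 36.2 and fell by 0.90 ± 0.06 (adjusted p = 2.42e-14). The doses lay apart without overlap. HMGCS1, an early enzyme of the path, fell by 0.70 ± 0.08, from 209 ± 1.12 to 129 ± 2.26 CPM. SQLE, a control point of the path, fell by 0.62 ± 0.05 and MSMO1 at -0.68 ± 0.09. The 6 not called were PMVK at 0.19 ± 0.22, CYP51A1 at -0.26 ± 0.10, ACAT2 at -0.21 ± 0.11, HSD17B7 at -0.18 ± 0.09, FDPS at -0.14 ± 0.08 and TM7SF2 at -0.10 ± 0.10.

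SREBF2, the transcription factor that governs this path, fell by 0.44 ± 0.06, with 93.6, 81.8 and 81.8 CPM against 117, 117 and 116. Its promoter was the only one of 13 called cholesterol genes with an entry that held the letters TCACNCCAC, the core of the sterol regulatory element, on either strand within 250 bases before the start. The share was 0.875% over all 27305 promoters and 0.83% over those of genes tested. The window (chr22:41832952-41833000, plus strand, GRCh38.p14) is shown 5′ to 3′ with the match in capitals, because SREBF2 is known to regulate its own promoter, and the match begins 133 bases before the start.
SREBF2: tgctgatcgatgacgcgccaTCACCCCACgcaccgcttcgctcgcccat

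Of 14 genes of fatty acid synthesis and desaturation 12 fell and 0 rose, at a median of -0.44. SCD, which makes monounsaturated fatty acids (ENSG00000099194, chromosome 10, 100347124 to 100364834), was the largest, at 519.5, 484 and 465 CPM against 988, 974 and 989.8 and a log2 fold change of -1.01 ± 0.06 (adjusted p = 1.57e-16). The desaturases FADS2 (-0.70 ± 0.05) and FADS1 (-0.35 ± 0.05), the elongases ELOVL6 (-0.50 ± 0.05) and ELOVL5 (-0.42 ± 0.06) and the synthase FASN (-0.45 ± 0.11) fell with it, as did their regulator SREBF1 (-0.47 ± 0.10). The 2 not called were GPAM (-0.10 ± 0.10) and ACSS2 (-0.17 ± 0.08). Of 8 targets of the oxysterol receptor LXR, SREBF1 again among them, 3 fell and 0 rose. ABCA1, which exports cholesterol, stood at 9.25, 8.62 and 6.33 CPM against 18.3, 15.4 and 16.3 and fell by 1.04 ± 0.17 (adjusted p = 1.24e-05), so that a gene of sterol export fell beside the genes of synthesis. LPCAT3 fell by 0.34 ± 0.10, a call lost without high-dose replicate 2 or 3 or medium-dose replicate 1 or 2. ABCG1 was at -0.58 ± 0.27 and was not called. Of 13 genes of PPAR and fatty acid oxidation 2 rose, PLIN2, which coats lipid droplets (0.32 ± 0.08), and ETFDH (0.32 ± 0.08), and neither was called without medium-dose replicate 2.

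Most epithelial and mesenchymal genes were not called, and those that were fell. CDH1, the epithelial cadherin, stood at 14.5, 13.8 and 13.2 CPM against 26.6, 24.4 and 24.9 and fell by 0.87 ± 0.08 (adjusted p = 6.51e-11). CDH2, the mesenchymal cadherin, fell by 0.60 ± 0.06. FN1, fibronectin, stood at 489, 369 and 328 CPM against 1003, 970.1 and 919 and fell by 1.29 ± 0.10 (adjusted p = 1.40e-13). Of 25 epithelial genes 8 fell and 0 rose, among them the keratins KRT8 (-0.48 ± 0.10) and KRT18 (-0.45 ± 0.09). EPCAM (0.01 ± 0.16), TJP1 (0.01 ± 0.08) and KRT7 (0.06 ± 0.10) were not called, and 5 to 7 of the 25 fell when 1 library was left out (5 without any 1 of the high-dose replicates or medium-dose replicate 1). Of 21 TGF-beta and mesenchymal genes 7 fell and 0 rose, at a median of -0.30. They included the receptor TGFBR2 (-0.67 ± 0.05), the ligand TGFB2 (-0.58 ± 0.13) and TGFBI (-0.58 ± 0.07). SNAI1, a repressor of CDH1, was also among them at -0.66 ± 0.20, and its call was lost without high-dose replicate 1 or medium-dose replicate 2 or 3. VIM (0.18 ± 0.08) and ZEB1 (0.10 ± 0.11) were not called. In a fit of the 6 libraries alone 11 of these genes fell and 3 rose. Of 15 YAP and TEAD targets 6 fell and 0 rose, led by CRIM1 (-0.85 ± 0.09) and the receptor kinase AXL (-0.52 ± 0.05). The best known targets, CCN1 (-0.13 ± 0.07) and CCN2 (0.14 ± 0.10), were not called. Among the 6, the call of AMOTL1 was lost without high-dose replicate 2 or 3 or medium-dose replicate 1 or 3. That of ANKRD1 was lost without high-dose replicate 2 or medium-dose replicate 2 or 3.

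Of 9 multidrug transporters 6 fell and 0 rose. The calls of ABCC2 and ABCC3 were lost without high-dose replicate 2 or 3 or medium-dose replicate 1. That of ABCC2 was also lost without medium-dose replicate 3, and that of ABCC3 without medium-dose replicate 2. ABCC1, an exporter of glutathione conjugates, stood at 219.5, 188 and 163 CPM against 359.9, 367 and 348 and fell by 0.92 ± 0.08 (adjusted p = 7.20e-12), and ABCC4 fell by 0.74 ± 0.07. Of 25 autophagy and lysosome genes 8 fell and 0 rose. Of the 8, 7 encode lysosomal proteins, such as the membrane protein LAMP2 (-0.49 ± 0.07) and the protease CTSD (-0.41 ± 0.08), whereas the cargo receptor SQSTM1 (0.04 ± 0.06) and MAP1LC3B (0.07 ± 0.05) were not called. SLC2A1, the main glucose importer, fell by 0.52 ± 0.06, from 194 ± 5.45 to 135 ± 6.53 CPM, while the first kinase of glycolysis HK2 rose by 1.23 ± 0.18, with 4.55, 5.89 and 4.91 CPM against 2.37, 2.32 and 1.88. The other 2 of 21 glycolytic genes that were called were PFKL (0.18 ± 0.06, lost in 5 of the 6 fits without 1 library) and HK1 (-0.30 ± 0.06). Of 17 hypoxia-inducible genes 2 rose, DDIT4 and the growth factor VEGFA (0.40 ± 0.09), and 6 fell, led by the carbonic anhydrase CA12 (-0.73 ± 0.08) and EGLN3 (-0.67 ± 0.11). CA9, another carbonic anhydrase, was at -0.09 ± 0.18 and was not called. Of 25 NRF2 targets 1 rose, HMOX1, which degrades heme, at 249, 259 and 252 CPM against 185, 181 and 181 and a change of 0.47 ± 0.06 (adjusted p = 4.35e-07), and 5 fell, led by EPHX1 (-0.47 ± 0.12). The classical targets NQO1 (0.04 ± 0.10), GCLM (0.15 ± 0.07) and TXNRD1 (-0.14 ± 0.10) were not called. The number of NRF2 targets that fell was 2 to 4 when 1 library was left out and 14 when only the 6 libraries were fitted.

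Several groups of housekeeping and growth genes held no call in the fit of 57 libraries. Of 22 genes of mitosis and spindle, 30 cytosolic ribosomal proteins, 25 nuclear respiratory chain subunits and 13 mitochondrially encoded mRNAs, 0 were called in either direction by edgeR over the 57 libraries. Their medians were -0.02, 0.14, 0.10 and 0.06. At an unadjusted p under 0.05, 2 of the mitosis genes were higher and 3 lower, 1 ribosomal protein and 2 respiratory chain subunits were higher, and 0 of the mitochondrial mRNAs passed. The DESeq2 Wald test called 1 mitosis gene higher and 0 genes of the other lists. These counts depended on which libraries set the spread. In a fit of the 6 libraries alone 25 of the 30 ribosomal proteins and 7 of the 25 respiratory chain subunits rose and 0 fell, 3 mitosis genes rose and 5 fell, and 1 mitochondrial mRNA rose and 2 fell. With the 9 Menthae Herba libraries alone 7 ribosomal proteins rose. Of 26 genes of DNA replication 5 fell and 0 rose, MCM5, a helicase subunit, the most at -0.26, and 1 or 2 fell when any 1 library was left out. With upper-quartile scaling, 1 fell. Of 26 proteasome subunits 1 rose, PSMC5 (0.19 ± 0.06), a call lost whichever library was left out, and in a fit of the 6 libraries alone 6 rose and 1 fell. Of 19 interferon response genes 1 fell, and of 13 cytochromes P450 outside the CYP1 family 3 fell, CYP4F12 (-0.67 ± 0.10), CYP3A5 (-0.48 ± 0.16) and CYP4F11 (-0.32 ± 0.06), the call of CYP3A5 being lost in 5 of the 6 fits without 1 library. Of 17 clock genes 2 rose, CIART, at 0.253, 0.215 and 0.348 CPM against 0.043, 0.0693 and 0.127, and NR1D2 (0.39 ± 0.12), and both calls were lost without high-dose replicate 1 or 2 or medium-dose replicate 2. Of 4 metallothioneins tested, 0 were called by edgeR or by the DESeq2 Wald test, 1 was higher at an unadjusted p under 0.05, and 3 rose in a fit of the 6 libraries alone.

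Of 7 AHR targets tested, 4 were called higher in the step below and 2 in the last step. The difference between the steps, tested directly, was called for 1 of the 7, CYP1B1. CYP1B1, a monooxygenase that AHR induces (ENSG00000138061, chromosome 2, 38066973 to 38109902), stood at 240.5, 205 and 198 CPM at 500 µg/mL, 232, 218 and 211 at 100 and 133, 131 and 124 at 20. The high-dose and medium-dose libraries overlapped and both lay above the low dose. Its step from 20 to 100 µg/mL was 0.77 ± 0.08 (adjusted p = 3.58e-08), its last step -0.03 ± 0.08, and the difference between the steps -0.80 ± 0.13 (adjusted p = 9.26e-05). AHRR, the repressor of AHR, stood at 10.2, 8.8 and 7.84 CPM at 500 µg/mL, at 8.61, 8.98 and 8.43 at 100 and at 5.38, 5.23 and 5.06 at 20. Its steps were 0.73 ± 0.13 and then 0.04 ± 0.12, but the difference of -0.69 ± 0.21 was not called (adjusted p = 0.0654, and 0.0284 without high-dose replicate 1). CYP1A1, the most inducible of these enzymes, stood at 12.1, 8.83 and 10.3 CPM at 500 µg/mL, at 8.05, 7.66 and 6.24 at 100 and at 2.81, 2.32 and 2.77 at 20. It rose in both steps, by 1.47 ± 0.18 and then 0.51 ± 0.17, and the second call (adjusted p = 0.0404) was lost in 5 of the 6 fits without 1 library, all but the one without high-dose replicate 2. TIPARP, a target that feeds back on AHR, went on rising without overlap, at 144, 138 and 133 CPM at 500 µg/mL, at 87.2, 90.3 and 88.7 at 100 and at 46.5, 50.5 and 46.5 at 20, with steps of 0.89 ± 0.06 and 0.64 ± 0.06. In the vehicle libraries CYP1B1 was at 100.5, 97.8 and 99 CPM and CYP1A1 at 1.03, 1.03 and 1.7.

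Of the 3 NR4A receptors, orphan nuclear receptors that respond quickly to stimuli, NR4A1 and NR4A3 fell in both steps. NR4A1 stood at 15.1, 13 and 13.3 CPM at 500 µg/mL, 18, 18.2 and 17.8 at 100 and 33, 31.5 and 30.8 at 20, with no overlap between any 2 doses. Its steps were -0.82 ± 0.10 and then -0.38 ± 0.11. NR4A3 stood at 3.18, 3.84 and 3.05 CPM at 500 µg/mL, at 5.21, 4.54 and 5.22 at 100 and at 7.39, 7.65 and 6.63 at 20, with steps of -0.53 ± 0.12 and -0.57 ± 0.13. The last-step call of NR4A1 was lost without high-dose replicate 2 or 3, and the lower-step call of NR4A3 was lost whichever of its 6 libraries was left out. NR4A2 was not called in either step. A further gene was chosen after its values were seen. GREM1, a secreted inhibitor of bone morphogenetic proteins, rose in both, to 25, 22.7 and 22.5 CPM at 500 µg/mL from 10.1, 11.3 and 10.7 at 100 and 6.92, 6.11 and 6.8 at 20. Its steps were 0.70 ± 0.12 and then 1.13 ± 0.12, and the 3 doses did not overlap.

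The difference between the 2 steps was tested directly (the last step minus the step below), in a contrast where the medium-dose libraries weigh on both sides. The last step was the more positive for 102 genes (0.554%) and the more negative for 432 (2.35%), and the total of 534 was 297 without medium-dose replicate 1 and 307 without medium-dose replicate 2. Of the 23 stress response genes 16 were more positive and 0 more negative, and of the 22 matrix genes 0 and 19. CHAC1 led with a difference of 1.94 ± 0.28 (adjusted p = 8.34e-06), followed by DDIT3 at 1.86 ± 0.25, NIBAN1 at 1.44 ± 0.23 and TRIB3 at 1.38 ± 0.18. FRAS1 (-1.82 ± 0.20), MUC5AC (-1.73 ± 0.37), FBN2 (-1.57 ± 0.25) and HSPG2 (-1.47 ± 0.25) were at the other end. Of the cholesterol genes 12 and of the fatty acid genes 7 were more negative in the last step, 6 of 12 serine and one-carbon genes were more positive and 6 of 20 tRNA synthetases were. Of 208 list members called in the last step, 103 had a called difference between the steps and 105 did not. Among the 105 were ATF4 (0.59 ± 0.23, adjusted p = 0.219), HMOX1 (0.35 ± 0.11) and every called member of the NR4A, cytosolic heat shock, NRF2 and DNA replication lists.

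**Figure D4:**
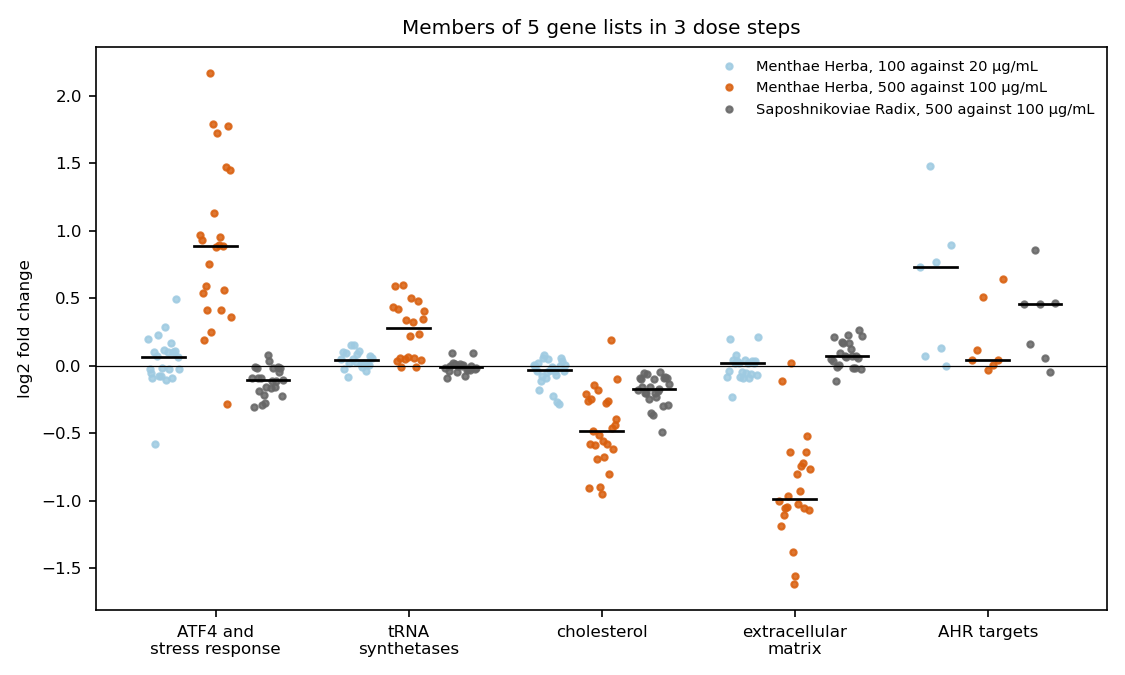
Each point is 1 tested member of a list, with its log2 fold change on the y axis, for Menthae Herba from 20 to 100 µg/mL (light blue), Menthae Herba from 100 to 500 µg/mL (orange) and Saposhnikoviae Radix from 100 to 500 µg/mL (grey). Bars are medians. The stress response members reach 2.17 and the matrix members -1.62 in the last step of Menthae Herba, while the AHR targets have their highest median in its lower step.

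Saposhnikoviae Radix, given at the same 500 and 100 µg/mL in the same library set with no library shared, was used to compare the step between extracts. Its own step changed 6 genes, 2 higher and 4 lower. The step of Menthae Herba was more positive than that of Saposhnikoviae Radix for 317 genes (1.72%) and more negative for 828 (4.5%). CHAC1 differed by 2.46 ± 0.23 (adjusted p = 2.28e-10), and the Saposhnikoviae Radix libraries were at 3.26, 3.58 and 3.63 CPM at 500 µg/mL and 4.19, 4.52 and 4.13 at 100. For MUC5AC the difference was -2.32 ± 0.31, with 218, 308 and 221 CPM at 500 and 243, 136 and 215 at 100 µg/mL of Saposhnikoviae Radix, values that overlap. Of the stress response list 17 of 23 and of the matrix list 20 of 22 differed in the direction of their change with Menthae Herba, and 12 of 25 cholesterol genes were the more negative with it. Some lipid genes fell with both extracts: SCD fell by 0.49 ± 0.06 (adjusted p = 3.22e-06) and INSIG1 at -0.36 ± 0.06 (adjusted p = 0.00315) with Saposhnikoviae Radix too. Their differences from Menthae Herba were -0.52 ± 0.08 and -0.54 ± 0.09. TIPARP rose with both extracts, by 0.46 ± 0.06 with Saposhnikoviae Radix, and the difference of 0.18 ± 0.09 was not called (adjusted p = 0.291). CYP1B1 rose there by 0.46 ± 0.08 (adjusted p = 0.00315). One high-dose library of Saposhnikoviae Radix was of the other library class, and without it 810 genes differed between the extracts.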

How the data were processed

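RNA was measured by sequencing in A549 cells, in 60 libraries. Per the labels' protocols, total RNA with an integrity number above 7 was made into strand-marking MGIEasy libraries and read in pairs. Per the submitters' processing notes, the authors' tools were RSEM 1.3.3, STAR 2.7.3a, FastQC 0.11.9 and Trim Galore 0.6.5, and the build was hg38 or GRCh38. Neither the labels nor these notes give the annotation release or the strand setting. The deposited values are expected counts per gene, not normalised, of which 9.95% have decimals. They were rounded to whole numbers. Symbols came from a gene name table (56558 IDs) and GENCODE 29 (497 more), and 18969 IDs have none. Positions are those of GENCODE 29 on GRCh38.

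Genes were filtered with filterByExpr (18396 of 60675 tested), scaled by TMM and fitted with edgeR 4.0.16 in R 4.3.3, with 1 mean per group over 57 libraries in 22 groups (35 residual degrees of freedom). Okbyeongpung-san, with 1 library a dose, was left out. The quasi-likelihood F-test was two-sided, with Benjamini-Hochberg adjustment over all genes tested and a threshold of 0.05. Standard errors were taken from the size of the log2 fold change over the root of F. Reads without molecular identifiers are not independent molecules.

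The dose step to examine and the gene lists were chosen with earlier results of these data known, and the libraries of the step were then taken by their labels. Genes were named by rule: the 8 highest and the 8 lowest changes among called genes with a symbol, a mean log2 CPM of at least 2 and no overlap between the doses; the 3 largest in each list with 3 or more calls one way; and the 4 highest and 4 lowest in each test of a difference. Uncalled list members were added to complete a pathway, and other names were added after their values were seen. The replicate numbers were checked as pairs of high and medium dose. The correlations of same-numbered deviations were 0.0174, -0.00371 and 0.00432, none above 0.1, so the numbers were not used as pairs. Alternatives were other scalings (DESeq2 1.42.0 size factors, upper quartile), no filter, unrounded counts, a replicate block, a mean per group and library class, fewer libraries, a 2-fold threshold, the DESeq2 Wald test, 1 library left out and, chosen after seeing the data, offsets for transcript length and GC share (spline with 5 degrees of freedom). The library class was set by ENSG00000282955 below or above 10 CPM. Some genes are not reported here.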

Additional observations from a re-analysis of the deposited data

Results flagged for a closer look

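Because a group here held 3 libraries, none was tested for a library far from the others. The results below were picked out because the step from 100 to 500 µg/mL differed between Menthae Herba and Saposhnikoviae Radix in edgeR's test of the difference itself. It was called for 1145 genes. At the upper end by the naming rule stood CHAC1 with a log2 difference of 2.46, DDIT3 with 2.06, COMMD3-BMI1 with 1.90 and STC2 with 1.79. At the lower end stood FRAS1 with -1.78, HSPG2 with -1.79, MUC5AC with -2.32 and EIF3CL with -5.17.

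A pair of these values belongs to genes whose reads are hard to assign. EIF3CL encodes a near-identical copy of EIF3C, a subunit of a translation initiation factor. It stood at 8.74, 12.3 and 5.83 CPM at the high dose of Menthae Herba against 23.4, 50.1 and 41.6 at the medium dose, and at 5.92, 279 and 28.2 against 3.62, 5.39 and 27.6 with Saposhnikoviae Radix. Replicate 2 of the high dose of Saposhnikoviae Radix, the library of the other class, was the highest of the 12. EIF3C in the same 3 libraries was at 418, 240.0 and 391 CPM, with replicate 2 the lowest. Without that library the difference was -2.58 (adjusted p = 0.501, edgeR), the call was lost in 8 of the 12 fits that leave out 1 library, and it was not called either with the replicate block (-4.77) or with a mean per group and library class (-2.58). Within Menthae Herba EIF3CL was not called (-2.10 ± 1.13, adjusted p = 0.287). COMMD3-BMI1 is a transcript that reads through from COMMD3 into BMI1 and shares their exons. It stood at 9.07, 7.04 and 7.49 CPM at the high dose against 3.62, 3.19 and 5.25 at the medium dose, and its difference of 0.96 ± 0.31 in the last step was lost in 5 of the 6 fits that leave out 1 of these libraries.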

How the results depend on the processing

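The count of genes called in the last step, 2048, was 2052 with DESeq2 size factors, 2150 with the DESeq2 Wald test and 1741 with no filter. Asking for 2-fold left 151 genes in the last step, 1 in the step below, 79 for the difference between the steps and 150 for the difference from Saposhnikoviae Radix. With a mean per group and library class the counts were 3248 for the last step, 110 for the step below and 1130 for the difference between the steps. In a fit of only the libraries compared they were 4373 for the last step and 17 for the step below. For the step below, 32 genes in the report, the count was 247 with no filter, 58 with the length and GC offsets and 66 with the DESeq2 Wald test. The cause of these moves was not tested.

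With 1 library left out at a time, the last step gave 1503 to 1707 genes, the step below 13 to 51, the difference between the steps 297 to 640 and the difference from Saposhnikoviae Radix 810 to 1117. The labels do not say whether same-numbered libraries share more than their number. With the replicate number as a block the counts were 2970 for the last step and 105 for the step below. They were 1011 for the difference between the steps and 1913 for the difference from Saposhnikoviae Radix.

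Of 210 genes called in the last step, 208 list members with HNF4A and GREM1, 0 changed sign under any alternative. The alternatives reuse the libraries in which these genes were called, so a change of sign was unlikely from the outset. The calls lost were 0 with the replicate block, 0 with a mean per group and library class, 1 with DESeq2 size factors, 10 with upper-quartile scaling, 27 with no filter, 8 with the offsets and 27 to 32 with 1 library left out. For EIF3CL the difference from Saposhnikoviae Radix lost its call with the block.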

Other observations

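The falls at 500 µg/mL reached gene families that the lists held in part or not at all. The families below were chosen by their symbols after the values were seen, so their counts are a description, beside 3.66% of all tested genes higher and 7.47% lower. Integrins, the receptors that bind matrix to the cell, fell in 10 of 17 cases and rose in 0, at a median log2 fold change of -0.57. ITGB8 was at -1.12 ± 0.27, ITGB6 at -0.97 ± 0.16 and ITGB1, the common beta chain, at -0.65 ± 0.05, from 1584 ± 4.56 to 1011 ± 68.9 CPM (SD, n = 3). Of 30 collagens 16 fell and 0 rose, at a median of -0.62, COL5A3 (-1.34 ± 0.33) and COL18A1 (-0.93 ± 0.09) among them. Of 4 NOTCH receptors, which pass signals between touching cells, 3 fell: NOTCH3 at -1.10 ± 0.09, NOTCH2 at -0.80 ± 0.11 and NOTCH1 at -0.60 ± 0.13. The giant cadherins FAT1 (-1.27 ± 0.18), FAT3 (-0.94 ± 0.18) and FAT4 (-0.85 ± 0.22) fell, 3 of 5 in their family. LRP1, a scavenger receptor, was at -1.27 ± 0.13, and 5 of the 9 LRP genes tested fell. Of 15 semaphorins 6 fell and of 9 plexins, their receptors, 4 fell, with SEMA3A at -0.92 ± 0.11 and PLXNA2 at -1.14 ± 0.18. In each of these families 0 members rose. Transcript length moved with the falls over all genes, and its part in these families was not tested.

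Small molecule carriers gave calls in both directions. Of 230 solute carriers 9 rose and 35 fell, at a median of -0.06. Over all genes tested 3.66% rose and 7.47% fell, so the share of carriers that rose was near that of all genes. The falls included SLC12A2, an ion cotransporter (-0.77 ± 0.15), and SLC39A10, a zinc carrier (-0.85 ± 0.09). SLC52A3, a riboflavin carrier of low level, fell by 1.05 ± 0.26, from 1.72 ± 0.233 to 0.826 ± 0.190 CPM. 

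Some genes were called between 20 and 100 µg/mL and not called in the last step, which does not show that they stopped changing. The difference between their steps is not given here. ALDH1A3, which makes retinoic acid, was at 0.47 ± 0.07 in the step below and 0.03 ± 0.07 in the last. PREX1, an activator of RAC, was at 0.40 ± 0.07 and then 0.13 ± 0.06. Others fell in both steps, such as INSL4, a peptide of the insulin family (-0.51 ± 0.11 and then -1.06 ± 0.12), RHOV (-0.53 ± 0.11 and -0.78 ± 0.12) and BDKRB2, a bradykinin receptor (-0.38 ± 0.08 and -0.86 ± 0.08). The steps share the medium-dose libraries, and whether the lower-step calls of these genes held without 1 library was not checked.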
